A study of Mus musculus with 34 samples.

Results

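Molecular chaperones and the transcription factors of protein-folding stress were measured in the liver of mice under chronic heat stress and of thermoneutral mice. The genes were chosen by symbol in the probe annotation: the Hsp families, Dnaj, Cct, Pdia, Fkbp, Bag and Hsf genes and a fixed set of named folding factors, with Hspg2 left out. The rule uses symbols only and no measured value, though it was written with earlier results of these data known. The rule found 28 spots that form 27 of the 1856 features on the array: 25 genes with 1 symbol and 2 spots annotated to both Hspd1 and Hspe1. By compartment these are 12 cytosolic features, 9 of the endoplasmic reticulum (ER), 3 of the mitochondrion and 3 stress transcription factors, so the set is wider than cytosol and ER alone. No Cct, Fkbp, Bag or Hsf symbol was matched, nor Stip1, Ahsa1, Ppid or Hyou1. The strongly heat-inducible genes Hspa1a, Hspa1b, Hsp90aa1, Hsph1 and Hspb1 were not among the matched symbols either, and they are not analysed here.

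Liver RNA of 13 mice was hybridised on 34 spotted 2-colour arrays, each against a universal mouse reference RNA whose composition is not given in the sources used here. The thermoneutral group (TN) held 7 mice on 20 arrays, kept at thermoneutral temperature and fed endophyte-free fescue (E-). The heat-stressed group (HS) held 6 mice on 14 arrays, with heat stress for 2 weeks. The labels of 8 HS arrays give 34 °C, 5 give exposure from day 27 to day 40 of age, and 2 give an age of 27 days. The strain, ICR, stands on the labels of 2 arrays. No genetic change is given for either group. What the HS mice were fed and how old the TN mice were is not given in the sources used here, so heat, diet, age and hybridisation batch cannot be told apart. Mouse identifiers begin with F or M (3 F and 4 M in TN, 3 F and 3 M in HS), and 1 mouse with the letter M is called female in a label. The letter is therefore used only as a letter. The array oligonucleotides were designed on rat sequence, so mouse RNA was read across species.

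Every value below is a log2 ratio of mouse liver over reference RNA, centred so that 0 is the median spot of an array. Spread is given over mice, not over the arrays of a mouse. A call means a Benjamini-Hochberg adjusted p under 0.05 over all 1856 features in limma. The log base of the deposited values is not stated. They were taken as log2, and fold values rest on that. A ratio compares 1 probe between 2 RNAs, and it does not rank one transcript against another within the liver. As in any bulk tissue, fewer cells of a type and less RNA per cell cannot be told apart.

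Chaperones bind unfolded stretches of proteins and keep them from aggregating while they fold. In the cytosol Hsp70 proteins cycle on and off their clients with J-domain partners and hand some of them to Hsp90, and the transcription factor Hsf1 raises these genes after heat through heat shock elements in their promoters. In the ER the Hsp70 protein BiP (Hspa5), the lectins calnexin and calreticulin and the disulfide isomerases fold secreted proteins, and a rise in unfolded protein activates Xbp1, Atf4 and Ddit3. The hepatocyte secretes most plasma proteins and carries a large ER.

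Several members carry known stress elements in their promoters. RefSeq promoter sequences (GRCm38.p6, 250 bases before to 50 after the start) were matched for 21 of 27 member symbols. Those of Hsp90ab1, Hspa8, Dnajc2, St13, Cryab and Hspa9 were not matched. The ER stress element (ERSE, CCAAT and CCACG with 9 bases of any letter between them) was searched on both strands and lay in the promoters of 4 of 9 ER members and 0 of 7 cytosolic members. It lay in 0.137% of 27025 genes with a promoter. The element was defined on promoters of this kind, so the match is no independent observation. The 4 ER members are shown for their shared letters, with the fixed bases of the element in capitals.

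Hspa5: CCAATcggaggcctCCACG
Canx: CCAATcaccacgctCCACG
Dnajc3: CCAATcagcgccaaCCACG
Calr: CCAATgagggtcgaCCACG

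The Hspa5 element lies at chr2:34772025-34772043 on the plus strand, 47 to 65 bases upstream of the start. The Canx element lies at chr11:50325800-50325818 on the minus strand, 127 to 145 bases upstream. The Dnajc3 element lies at chr14:118937827-118937845 on the plus strand, 87 to 105 bases upstream. The Calr element lies at chr8:84847075-84847093 on the plus strand, opposite to the gene and 144 to 162 bases upstream. All 4 lie upstream of the start of their gene.

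Herpud1 carries the shorter ERSE-II (ATTGG and CCACG with 1 base of any letter between them). This element was found in 0.0444% of genes and in no other member with a matched promoter. It lies at chr8:94386377-94386387 on the plus strand, 42 to 52 bases upstream of the start.

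Herpud1: ATTGGgCCACG

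The heat shock element (HSE, GAA, TTC and GAA with 2 bases of any letter between neighbours, both strands) was found in 0.662% of genes. Among the 21 matched member symbols it was found only in the promoter that Hspd1 and Hspe1 share on opposite strands. Its matches overlap by 8 bases there, at chr1:55088059-55088071 on the minus strand and chr1:55088064-55088076 on the plus strand. Of the cytosolic members 0 of 7 matched promoters had it, and those of Hsp90ab1, Hspa8, Dnajc2, St13 and Cryab could not be searched.

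Hspd1 and Hspe1, minus strand: GAAggTTCtaGAA
Hspd1 and Hspe1, plus strand: GAAccTTCcgGAA

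A match of letters is a description and not a bound site. Of the 4 genes with an ERSE, Hspa5, Dnajc3 and Canx were called below the array median against the reference and Calr was not called.

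Most of the cytosolic chaperones had a ratio of liver over reference below the array median. Of the 27 members 20 were called off the array median, against 48.4% of all features and 64.2% of the 1019 named genes. In the direction below the median stood 16 members (59.3%), against 24.4% of all features and 30.9% of named genes. In the direction above it stood 4 members (14.8%), against 24.1% of all features and 33.3% of named genes. Cytosolic members made up 9 of those below and 2 of those above, with a median of −0.59 over the 12. ER members made up 4 below and 2 above, with a median of −0.05 over the 9. The median over all 27 was −0.44 and that over all features was −0.03.

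Among the cytosolic heat shock proteins, Hsp90ab1, the constitutive Hsp90, had the lowest ratio of all members. Its value ran from −2.80 to −0.75 in the TN mice with a median of −1.31, and from −2.13 to −1.23 in the HS mice with a median of −1.55. Every one of the 13 mice lay below the array median, and the ranges overlap. The mean over groups was −1.53 with an SE of 0.15, 2.89-fold below the reference relative to the median spot (limma adjusted p 7.75e-09). Hspa8, the constitutive Hsp70, was not called at −0.18 (SE 0.17). Its mice fell on both sides, 6 above the array median and 7 below. Hspa4, a nucleotide exchange factor of the Hsp110 kind, lay below the median in 13 of 13 mice with a mean of −0.66 (SE 0.14).

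The co-chaperones followed the same side. St13, which links Hsp70 with Hsp90 clients, had a mean of −1.10 (SE 0.13) and lay below 0 in 13 of 13 mice. Cdc37, which brings kinases to Hsp90, had −0.52 (SE 0.12) and the narrowest TN spread of the co-chaperones, from −0.90 to −0.21. The J-domain proteins Dnaja2, Dnaja1 and Dnajc2, which stimulate Hsp70 or work at the ribosome, had −0.76 (SE 0.16), −0.41 (SE 0.14) and −0.41 (SE 0.15). Dnaja1 and Dnajc2 lost the call without centring and on the arrays with liver RNA in Cy3. Dnajc2 also lost it without F222, F223, F235, F236, F241 or M256 (−0.40 to −0.32), and Dnaja1 without M256 (−0.33) and with array quality weights (−0.24). Dnaja2 and Hspa4 lost it on the Cy5 arrays alone, both at −0.59. Tcp1, a subunit of the cytosolic chaperonin that folds actin and tubulin, had −0.89 (SE 0.14).

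Ppia, the cytosolic cyclophilin, a prolyl isomerase, ran from −1.86 to −0.42 in TN mice with a median of −1.33. In HS mice it ran from −2.18 to −1.07 with a median of −1.50. All 13 mice were below the array median and the groups overlap. Its mean of −1.42 (SE 0.14) was the second lowest among the members (limma adjusted p 7.94e-09).

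The cytosolic members above the median were Cryab and Hspbap1. Hspbap1, a protein named for binding the small heat shock protein Hspb1, ran from −0.91 to 0.95 in TN mice with a median of 0.27. It ran from −0.14 to 1.49 in HS mice with a median of 0.80. Of 13 mice 11 lay above the array median, with 1 mouse of each group below. Its mean was 0.52 (SE 0.16, limma adjusted p 0.0092), and on the Cy3 arrays alone it was 0.13 and not called. Cryab, the small heat shock protein alpha-B crystallin, had 0.59 (SE 0.13), but its 2 spots disagreed.

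Cryab spot A ran from 1.22 to 2.15 in TN mice with a median of 1.53, and from 0.92 to 3.34 in HS mice with a median of 1.69. Spot B ran from −2.19 to −0.27 in TN mice with a median of −0.75, and from −0.93 to −0.07 in HS mice with a median of −0.43. Spot A was above the array median in every mouse and spot B below it in every mouse. With each spot fitted on its own, spot A was called above at 1.84 (SE 0.18) and spot B below at −0.67 (SE 0.15). Spot A exceeded spot B by 2.51 on average (SD 0.99 over 13 mice, 1.15 to 4.26). The spots carry different sequence accessions under the same symbol. The averaged Cryab value therefore hides opposite sides of the array median, and Cryab's place among the members above it rests on spot A alone.

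**Figure D1:**
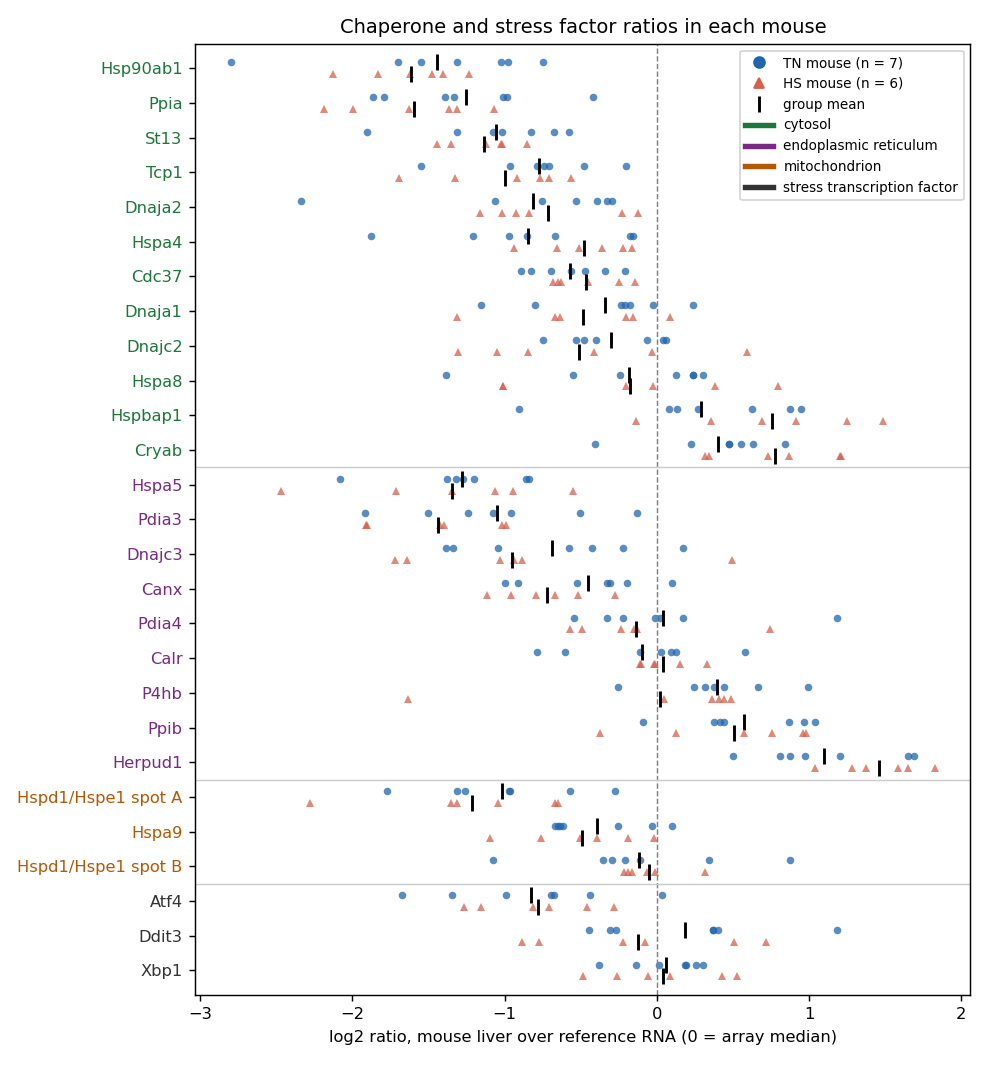
Log2 ratio of mouse liver over reference RNA for the 27 members, 1 point per mouse (7 TN circles, 6 HS triangles), with black ticks at group means and names coloured by compartment. Hsp90ab1, Ppia, Hspa5 and Pdia3 lie left of 0 in every mouse, Herpud1 lies right of 0 in every mouse, and the 2 groups overlap for every member.

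The ER members were divided. Hspa5, the ER Hsp70 called BiP, ran from −2.08 to −0.84 in TN mice with a median of −1.27. In HS mice it ran from −2.47 to −0.55 with a median of −1.20. All 13 mice lay below the array median, and the HS mice enclosed the TN mice on both sides. Its mean was −1.31 (SE 0.15, limma adjusted p 8.87e-08). Pdia3, the disulfide isomerase that works with calnexin and calreticulin, ran from −1.91 to −0.13 in TN mice with a median of −1.07. In HS mice it ran from −1.91 to −0.99 with a median of −1.41. It was below the median in 13 of 13 mice, with a mean of −1.24 (SE 0.15).

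Dnajc3, an ER partner of BiP that also restrains eIF2alpha kinases, had a mean of −0.82 (SE 0.17), and Canx had −0.59 (SE 0.13). Canx lost its call on the Cy3 arrays alone, where it stood at −0.09. Calr had −0.03 (SE 0.13) and the disulfide isomerase Pdia4 had −0.05 (SE 0.15). P4hb, the most studied disulfide isomerase and a subunit of collagen prolyl hydroxylase, had 0.21 (SE 0.16). None of these 3 was called. With both dyes Pdia3 and Canx were called below the median and their partner Calr was not. On the Cy3 arrays alone Canx and Calr were close, at −0.09 and −0.11. A difference between these genes was not tested.

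Herpud1 and Ppib were the ER members above the median. Herpud1, a membrane protein of ER-associated degradation, ran from 0.50 to 1.69 in TN mice with a median of 0.97. In HS mice it ran from 1.04 to 1.83 with a median of 1.48. It was the only member above the array median in 13 of 13 mice, which held for 14.6% of all features. Its mean was 1.28 (SE 0.13, 2.43-fold, limma adjusted p 1.28e-08). Ppib, the ER cyclophilin, ran from −0.09 to 1.04 in TN mice with a median of 0.44. In HS mice it ran from −0.38 to 0.98 with a median of 0.67. It lay above the median in 11 of 13 mice, with a mean of 0.54 (SE 0.14), and on the Cy5 arrays alone it was 0.36 and not called. The cyclophilins of cytosol and ER thus lay on opposite sides of the array median.

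Of the mitochondrial features, Hspa9, the matrix Hsp70, had −0.44 (SE 0.13). It lost the call without centring (−0.36) and on the Cy3 arrays (−0.023). The 2 spots annotated to both Hspd1 and Hspe1, the chaperonin and its lid, carry 1 accession and could not be assigned to either gene. Spot A ran from −1.77 to −0.27 in TN mice with a median of −0.97, and from −2.28 to −0.65 in HS mice with a median of −1.18. Spot B ran from −1.07 to 0.87 in TN mice with a median of −0.21, and from −0.21 to 0.31 in HS mice with a median of −0.11. Spot A was lower than spot B in every mouse, with a mean difference A minus B of −1.02 (SD 0.47 over 13 mice, −2.11 to −0.47). Spot A was called at −1.12 (SE 0.15) and spot B was not at −0.09 (SE 0.14).

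**Figure D2:**
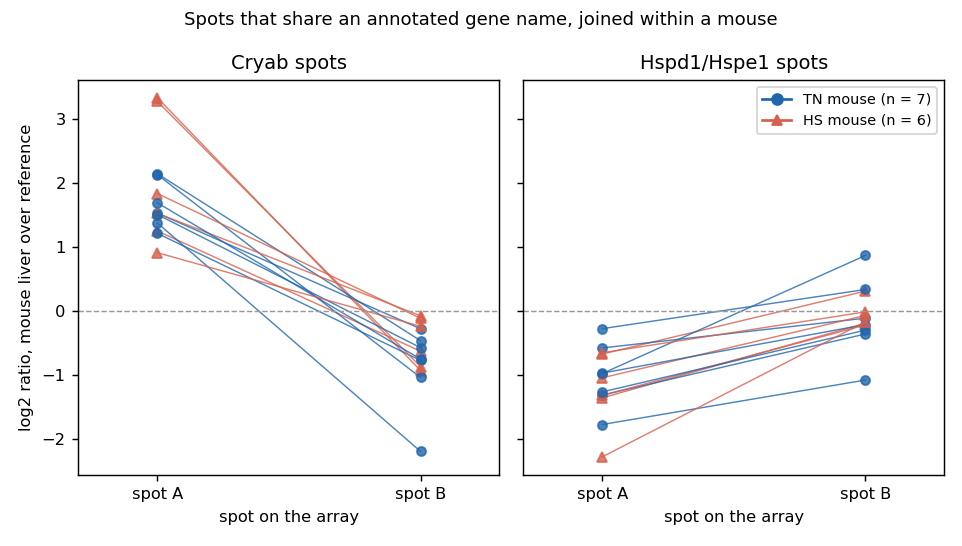
Log2 ratio of liver over reference for the 2 Cryab spots (left) and the 2 Hspd1/Hspe1 spots (right), with a line for each of 13 mice (7 TN circles, 6 HS triangles). Cryab spot A stands above spot B in all 13 mice, and Hspd1/Hspe1 spot A below spot B in all 13.

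Among the transcription factors of the ER stress response, only Atf4 was called, at −0.80 (SE 0.15) with 12 of 13 mice below the median. Xbp1, whose messenger RNA is spliced under ER stress, had 0.05 (SE 0.13), and Ddit3, the pro-apoptotic factor CHOP, had 0.03 (SE 0.16). Array probes of this kind measure total Xbp1 and do not tell the spliced form.

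Some members kept to one side of the array median in every mouse. Below the array median in all 13 mice lay 10 of 27 (37.0%), against 13.6% of all features and 18.7% of named genes. These 10 were Hsp90ab1, Ppia, St13, Tcp1, Dnaja2, Hspa4 and Cdc37 of the cytosol, Hspa5 and Pdia3 of the ER, and Hspd1/Hspe1 spot A.

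Each mouse except F203 had arrays in both dye orientations, which gives a check within the design. Fitted on 21 Cy5 arrays and 13 Cy3 arrays apart, the level had the same sign in 23 of 27 members, against 64.6% of all features. The 4 that changed sign, Hspa8, P4hb, Xbp1 and Ddit3, were uncalled when both dyes were used. In both orientations 10 members were called below (Hsp90ab1, Ppia, St13, Tcp1, Cdc37, Hspa5, Pdia3, Dnajc3, Hspd1/Hspe1 spot A and Atf4) and 2 above (Herpud1 and Cryab), against 14.8% and 16.3% of all features. The Cryab value averages 2 spots on opposite sides of the array median. The Cy5 value was lower than the Cy3 value in 19 of 27 members, with a median gap of −0.47. Over all features it was lower in 53.6%, with a median gap of −0.06. Herpud1 hardly differed, with 1.28 in Cy5 and 1.27 in Cy3. St13 had −1.62 in Cy5 and −0.64 in Cy3, and Canx had −1.10 and −0.09. The size of the ratio thus differed between the dyes for several members. P4hb was called above the median with Cy3 alone, at 0.52, without M256, at 0.36, and with array quality weights, at 0.36.

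**Figure D3:**
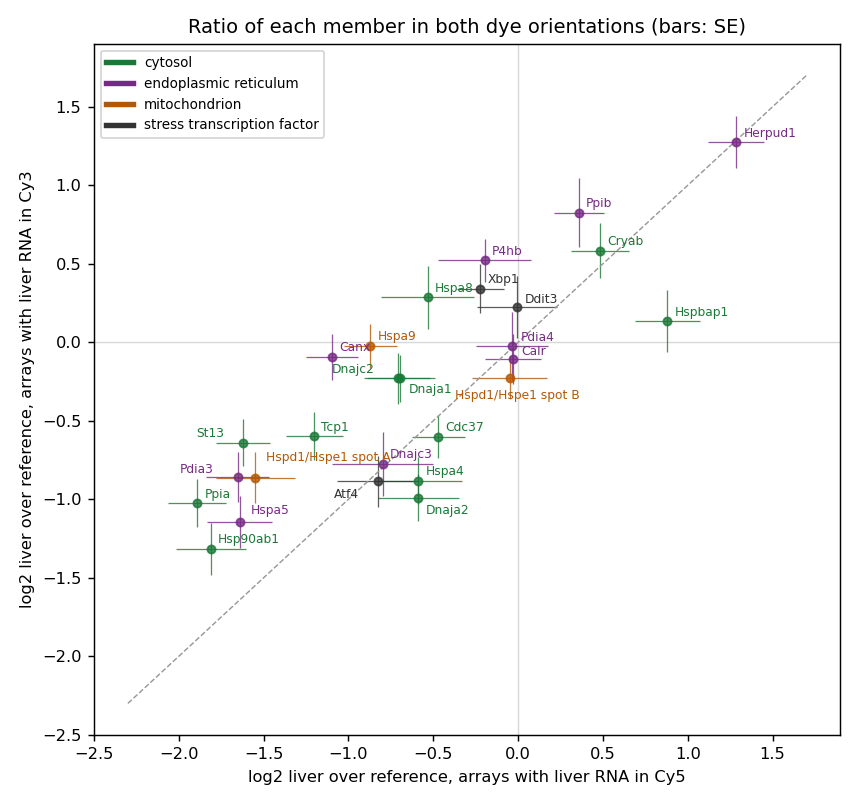
Log2 ratio of liver over reference of each member on arrays with liver RNA in Cy5 (x axis) and in Cy3 (y axis), with SE bars and a dashed line of equality. Herpud1 sits on the line at 1.28 and 1.27, and 19 of 27 members lie above the line, with the lower value in Cy5.

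No member was called between heat-stressed and thermoneutral mice. limma called 0 of 27, and 0 of 27 had an unadjusted p under 0.05. Over all 1856 features the called share was 0% in each direction, and 45 features (2.42%) had an unadjusted p under 0.05. The member differences, HS minus TN, ran from −0.39 (Pdia3) to 0.47 (Hspbap1). Positive differences were found in 10 of 27 members, against 48.3% of all features and 58.9% of named genes. The member median was −0.08 and that of all features was −0.01. The sign of the member median depended on the processing. It was 0.00087 with a plain mean of turned arrays, 0.11 on the Cy3 arrays and −0.17 on the Cy5 arrays. Without HS mouse M256 it was 0.018.

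The intervals were computed for each member on its own and concern the difference between the groups. Heat, diet, age and hybridisation batch are not told apart in that difference. The 95% interval of the difference lay within 2-fold for 24 of 27 members (88.9%), against 75.2% of all features. The 3 exceptions were Hspbap1, P4hb and Pdia3. It lay within 1.5-fold for 1 member, Xbp1 (3.66% of all features). Smaller changes lie inside these intervals, and the missing calls do not show equal levels. The groups overlapped for every member, and no feature of the array had groups apart (0%).

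The cytosolic members showed 6 positive and 6 negative differences with a median of −0.04. Hspbap1 had the smallest p of all members. Its 6 HS mice averaged 0.76 ± 0.59 (SD) and its 7 TN mice 0.29 ± 0.63 (SD), and 5 of 6 HS mice lay above the TN mean. The difference was 0.47 (SE 0.32, interval −0.20 to 1.14, limma p 0.16, adjusted p 0.999). The TN mouse M244 was the lowest, at −0.91, and the other TN mice lay between 0.08 and 0.95. Without M244 the difference was 0.27.

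Cryab averaged 0.40 ± 0.40 in TN and 0.78 ± 0.40 in HS mice (SD). The difference was 0.38 (SE 0.27, interval −0.18 to 0.93, limma adjusted p 0.999). It was 0.11 (SE 0.34) on the Cy5 arrays and 0.64 (SE 0.35) on the Cy3 arrays. The 2 spots gave alike differences, 0.37 (SE 0.36) for spot A and 0.39 (SE 0.30) for spot B, although their ratios lie on opposite sides of 0. In spot A the highest mice were F203 at 3.34 and F241 at 3.28, both HS, and the lowest mouse was also HS, M256 at 0.92. The SD was 1.04 over the HS mice and 0.36 over the TN mice, a difference in spread that was not tested. F203 has a single Cy3 array (3.53), and F241 had 4.15 on its Cy3 array and 2.41 on its Cy5 array.

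Hspa4 ran from −1.88 to −0.16 in TN mice with a median of −0.85, and from −0.94 to −0.17 in HS mice with a median of −0.44. The HS range lay inside the TN range. The difference was 0.37 (SE 0.29, interval −0.23 to 0.97, limma adjusted p 0.999). It was 0.22 without M244, and 0.043 without the Cy5 array of M244 and the Cy3 array of F241.

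The other cytosolic members had differences from −0.34 to 0.10. Hspa8 had 0.00 (SE 0.34, interval −0.70 to 0.71). Hsp90ab1 had −0.17 (SE 0.31, interval −0.80 to 0.46), with TN mice at −1.45 ± 0.68 and HS mice at −1.62 ± 0.32 (SD). Its lowest mouse was M244 of TN at −2.80. The J-domain proteins had −0.15 (Dnaja1), 0.10 (Dnaja2) and −0.21 (Dnajc2), Cdc37 had 0.10, St13 −0.08, Tcp1 −0.22 and Ppia −0.34.

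The ER members had 2 positive differences of 9 and a median of −0.18. The positive ones were Herpud1 and Calr. Herpud1 averaged 1.10 ± 0.44 in TN and 1.46 ± 0.28 in HS mice (SD), and 5 of 6 HS mice lay above the TN mean. Its difference was 0.36 (SE 0.26, interval −0.19 to 0.91, limma p 0.186, adjusted p 0.999). Leaving out any 1 mouse did not turn it or move it by over 1.5 times, which among the members held only for Herpud1 and Cryab. Other settings did move both. With arrays scaled to one median absolute deviation Herpud1 had 0.13 and Cryab 0.17, and without the Cy5 array of M244 and the Cy3 array of F241 Cryab had 0.20.

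Pdia3 had the lowest difference, −0.39 (SE 0.30, interval −1.01 to 0.22, limma p 0.20, adjusted p 0.999), with TN mice at −1.05 ± 0.60 and HS mice at −1.44 ± 0.40 (SD). P4hb had −0.38 (SE 0.33), which rested on 1 mouse. HS mouse M256 stood at −1.64, from −3.44 on its Cy5 array and 0.17 on its Cy3 array, and the other 5 HS mice lay between 0.04 and 0.49. Without M256 the difference was −0.019. Hspa5 had −0.07 (SE 0.31), Canx −0.27 (SE 0.26), Dnajc3 −0.26 (SE 0.35), Calr 0.14 (SE 0.26), Pdia4 −0.18 (SE 0.30) and Ppib −0.07 (SE 0.28). Of the promoters with an ERSE, 3 belong to genes with a negative difference and 1, Calr, to a gene with a positive one.

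The transcription factors gave −0.02 (SE 0.25) for Xbp1, 0.05 (SE 0.29) for Atf4 and −0.31 (SE 0.32) for Ddit3. The Xbp1 interval, −0.55 to 0.50, was the narrowest among these 3. Hspa9 had −0.10 (SE 0.26), and the Hspd1/Hspe1 spots had −0.20 (SE 0.31) and 0.06 (SE 0.28).

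**Figure D4:**
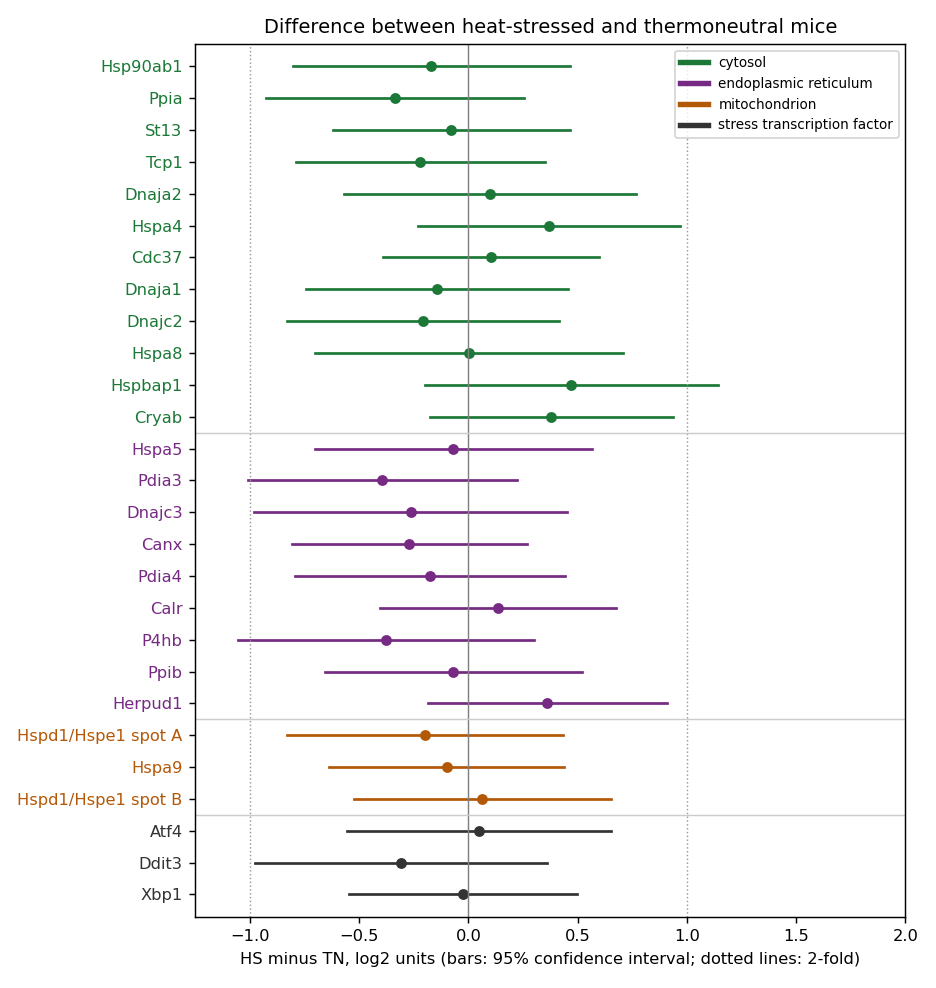
HS minus TN difference of each member in log2 units with its 95% confidence interval, coloured by compartment, with dotted lines at 2-fold. Every interval includes 0, and the intervals of Hspbap1, Pdia3 and P4hb reach past a dotted line.

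In the 2 dye orientations the difference had the same sign in 14 of 27 members, against 53.9% of all features. F203 has no Cy5 array, so the Cy5 fit holds 5 HS mice. P4hb had −0.92 in Cy5 (SE 0.55) and 0.19 in Cy3 (SE 0.27). Herpud1 was positive in both, at 0.52 (SE 0.33) and 0.19 (SE 0.33). Hspbap1 had 0.18 (SE 0.38) and 0.81 (SE 0.39). The lowest adjusted p of any member over all settings was 0.782.

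Single mice stood at the end of the range in many members. M244 of TN was the lowest of 13 mice in 11 members (40.7%), against 34.5% of all features. It was the highest in 2 members (7.4%), against 25.2% of all features. Its ratios were spread wide, with a median absolute deviation of 1.75 over all features, while the other mice had 0.54 to 1.07. All 12 cytosolic members lay below the TN mean in M244, with a median shift of −0.83, and the shift over all features was −0.34. That TN mean includes M244 itself. M256 of HS was the lowest in 8 members (29.6%), against 10.5% of all features, and its cytosolic members were shifted by a median of −0.41 while all features were shifted by −0.12. M211 of TN was the highest in 10 members (37.0%), against 16.6% of all features. Over all 13 mice left out 1 at a time, 25 of 27 differences moved by over 1.5 times or turned in some case. That count is not limited to M244, M256 and M211: the Canx difference moved so far only without F236. A difference near 0 passes the ratio easily, and that of Hspa8, 0.0040, did so for each of the 13 mice. The member median without M244 was −0.15. The Cy5 array of M244 had a median absolute deviation of 2.46 and the Cy3 array of F241 one of 1.91, while the median over arrays was 0.98. Without these 2 arrays the member median was −0.13, and 20 members were again called against the reference, 16 below and 4 above.

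**Figure D5:**
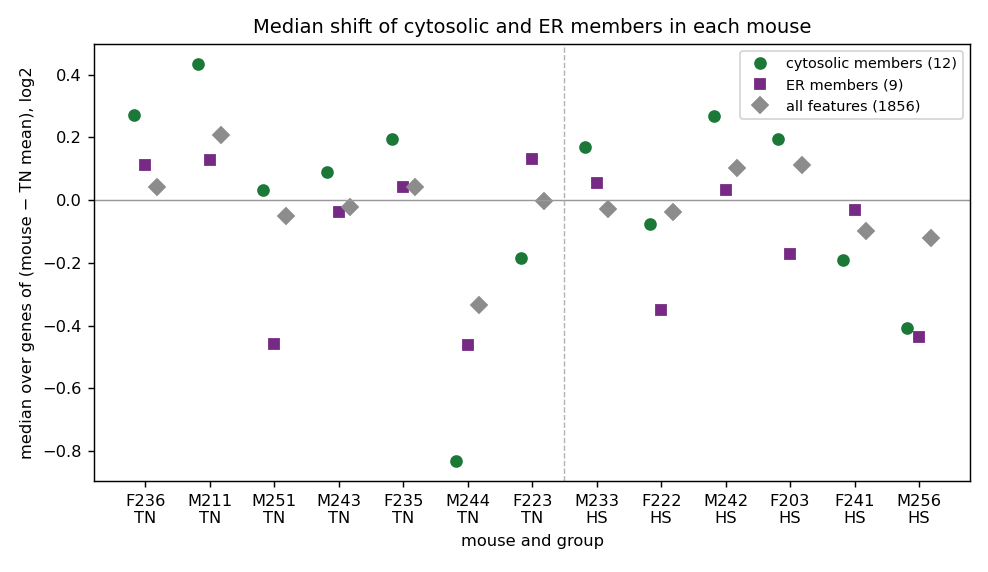
Median over cytosolic members (12), ER members (9) and all features (1856) of a mouse's log2 ratio minus the TN mean, for each of 13 mice. M244 of TN has the lowest cytosolic shift, −0.83, M256 of HS follows at −0.41, and the HS and TN mice otherwise share a range.

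Arrays of 1 mouse also differed. For a member, the median range over the arrays of a mouse was between 0.56 and 1.51 log2 units, in 12 mice with several arrays. These array values carry no dye correction, so the ranges include the gap between the dyes. The widest cases were Hspd1/Hspe1 spot B in F235 (−0.72 to 3.76), Dnajc3 in M244 (−1.79 to 2.13) and P4hb in M256 (−3.44 to 0.17). Ppib in F222 ran from −0.47 to 2.98. These 4 ranges exceed the group differences several times over, though the group differences rest on values fitted with a dye term.

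The letter of the mouse identifier gave no call among the members. limma called 0 of 27 for F minus M, and 0 of 27 had an unadjusted p under 0.05. Over all features 0.0539% were called and 3.34% had an unadjusted p under 0.05. The smallest p values were those of Hspbap1, P4hb and Hsp90ab1. Hspbap1 had 0.50 (SE 0.33, F mice 0.79 ± 0.46, M mice 0.26 ± 0.69, SD). P4hb had 0.44 (SE 0.33) and Hsp90ab1 had 0.40 (SE 0.31).

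The test of the heat difference between letters called 0 of 27 members and 0% of all features in limma, and 1.19% of features had an unadjusted p under 0.05. Dnajc3 was the only member under that value. Its F mice averaged −0.41 under TN and −1.41 under HS. Its M mice averaged −0.90 under TN and −0.49 under HS. The interaction was −1.41 (SE 0.67, limma p 0.045, adjusted p 0.998). Its unadjusted p was 0.05 or above in 13 of 24 alternatives, among them 9 of the 13 that leave out a mouse (F236, M211, M251, M243, F235, F223, M242, F203 or F241). Over the alternatives the value ran from −2.25 to −0.83 and the adjusted p was at least 0.498. Herpud1 had −0.80 (SE 0.54) and Dnaja2 −0.84 (SE 0.66).

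Other genes of the folding pathways, from lists of symbols, had no call for heat either, and 0% of all features had one. Of 71 symbols of ER translocation and quality control 13 were measured. limma called 0 of 13 for heat, and none had an unadjusted p under 0.05 (2.42% of all features). Of the differences 2 were positive (48.3% of all features) and the median was −0.19. Against the reference, 8 of 13 were called below the median (24.4% of all features) and 2 above it (24.1%), Lman1, a cargo receptor for glycoproteins, and Sec61a1, the translocation channel. Of 40 symbols of other folding and heat response partners 9 were measured. For heat 0 of 9 were called, none had an unadjusted p under 0.05, 5 were positive (48.3% of all features) and the median was 0.03. Against the reference 4 of 9 were called below (24.4% of all features) and 2 above (24.1%), the superoxide dismutase Sod1 and the prohibitin Phb2.

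The labelled tissue was checked against cell type markers of hepatocytes. Of 19 such symbols 16 were measured. Of these, 13 were called above the array median, against 24.1% of all features. Above it in all 13 mice lay 12, against 14.6% of all features. The median of the 16 was 2.77. Apoa2 (0.16), Fgg (−0.07) and Ttr (−0.20) were not called. The mean of all 16 per mouse ran from 2.28 to 2.84 in TN and from 2.14 to 2.75 in HS mice. Of 13 Kupffer cell and macrophage symbols 4 were measured and 3 were called below, against 24.4% of all features. The mean of the 4 per mouse ran from −1.15 to −0.00031 in TN and from −0.56 to −0.093 in HS mice. Vim, a marker of stellate cells and fibroblasts, stood at −4.03, the lowest of all features. Krt8 of the bile duct list stood at 0.10, and the red blood cell marker Hba-a1 stood at 1.24. Symbols of lymphocytes, endothelium and skeletal muscle were not among those measured. No marker was called for heat, and 0% of all features were. Apoa1 alone among them had an unadjusted p under 0.05, which 2.42% of all features had. Its difference was −0.93 (SE 0.41, limma p 0.033, adjusted p 0.999). The part of the reference RNA and of other cell types in the member levels was not tested.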

How the data were processed

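The authors deposited 1 log ratio per spot and array (Cy5 over Cy3, 1920 spots, −7.64 to 7.71, 11 values missing and none of them in member spots), taken here as log2. How they were normalized and filtered, and their log base, is not given in the sources used here. Per the labels' protocols, RNA was labelled indirectly with amino-allyl dyes. In 13 of 34 arrays the liver RNA was in Cy3. On each Cy5 array 13 to 16 of 16 hepatocyte markers lay above the median, and on each Cy3 array 1 to 3, so the direction follows the dyes in the labels. The highest correlation between arrays was 0.903, so no library was repeated.

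Each array was centred on its median spot, spots of a gene were averaged, and least squares with a dye term gave 1 ratio per mouse. Groups were compared with limma 3.58.1 in R 4.3.3 (lmFit, eBayes, at least 4 mice a group). The script was tested on simulated data. All members are named. Values by mouse are given for the 5 smallest p for heat, the 3 highest and 3 lowest ratios, members with several spots, Hspa5 and Hsp90ab1, and the 3 smallest p for letter and interaction are given. Of the 1920 spots, 1083 carry 1 symbol, 7 carry several and 830 are unnamed here. Members and lists were chosen with earlier results of these data known. Nothing beyond the mouse identifiers says that mice were kept apart, so p-values measure the spread between these mice. The number of mice and arrays limits the precision. The alternatives were other centring and scaling, single dyes, plain means, single arrays with the mouse as a random effect, array weights, the letter as a term, single spots, 2 arrays left out and each mouse left out.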

Additional observations from a re-analysis of the deposited data

Results flagged for a closer look

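In 5 of 54 groups of mice, 1 mouse stood apart from the others by Dixon's test at the 95% level. Chance does this in about 1 of 20 independent groups. The 54 groups are the 27 members in the same TN and HS mice, so they are not independent. The 5 flags therefore cannot be set against that rate. Of the 5 flags, 2 fell on the TN mouse M244. Dnaja2, a J-domain protein, stood at −2.33 in M244, while the next lowest TN mouse stood at −1.06. Pdia4, a disulfide isomerase, stood at 1.19 in M244, the highest of the TN mice, with the next at 0.17. Hspa5, the ER Hsp70, stood at −2.08 in the TN mouse M251, with the next at −1.38. P4hb stood at −1.64 in the HS mouse M256, with the next at 0.045. Pdia4 stood at 0.74 in M256, the highest of the HS mice, with the next at −0.13.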

How the results depend on the processing

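No paired analysis was possible because the replicate numbers in the labels count the arrays of one mouse. Over 27 results and their alternatives, 598 of 674 values for HS minus TN and 634 of 674 for liver over reference kept direction and side of the threshold. No setting gave a call for heat among the members. Of the levels, 19 lost the call, 3 gained it and 18 changed sign, none of those 18 called in the main analysis. The cause was not tested. The count of features called for F minus M was 0 on Cy5 arrays, 29 with array weights and 1 to 3 when 1 mouse was left out, with 3 without F222. For the interaction 72 of 72 values kept direction and side of the threshold, and for F minus M of named members 71 of 72. Size does not enter these counts: the Dnajc3 interaction ran from −2.25 to −0.83.

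Differences HS minus TN of the other sign were as follows. With Cy3 arrays alone they were Dnaja1 0.28, Dnajc2 0.051, St13 0.02, Hspa5 0.15, P4hb 0.19, Ppib 0.47, Hspd1/Hspe1 spot A 0.23, spot B −0.021, Xbp1 0.11 and Atf4 −0.26. With Cy5 alone they were Dnaja2 −0.017, Calr −0.020 and Pdia4 0.23. With array weights they were Hspa8 −0.27, Hspa5 0.013, Dnajc3 0.11, Ppib 0.073, Hspa9 0.021, spot B −0.043 and Xbp1 0.0086, and P4hb for F minus M −0.044. Centred on named genes they were Hspa8 −0.087, spot B −0.027 and Atf4 −0.044, and without centring −0.072, −0.013 and −0.029. With the letter as a term Hspa8 had −0.026. With plain means they were St13 0.040, Ppib 0.00087, Hspa9 0.0096 and Xbp1 0.051. With quantile normalization they were Hsp90ab1 0.0052, Hspa8 −0.0044, St13 0.10, Hspa5 0.11 and Dnajc3 0.0064. Scaled to one deviation they were Hspa8 −0.078, Hspa5 0.10 and spot B −0.038. With single arrays they were Ppib 0.016, spot B −0.00038 and Atf4 −0.0046. Without the Cy5 array of M244 and the Cy3 array of F241 they were Dnaja2 −0.071, Cdc37 −0.045, Calr −0.017, Pdia4 0.033, spot B −0.17, Xbp1 0.015 and Atf4 −0.23.

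Levels of the other sign were Hspa8 0.29 (Cy3 alone), P4hb −0.20, Xbp1 −0.22 and Ddit3 −0.0054 (Cy5 alone), Ddit3 −0.11 (array weights), Xbp1 −0.00055 and Ddit3 −0.020 (named genes), Calr 0.052 and Pdia4 0.031 (no centring), Calr 0.0039 (quantile), Ddit3 −0.0055 (scaled), and Pdia4 0.040 and Xbp1 −0.0082 (without the 2 arrays). 

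Leaving out 1 mouse at a time turned these heat differences: Atf4 (−0.075 to 0.19), Dnaja1 (−0.28 to 0.030), Dnaja2 (−0.15 to 0.19), Hspa5 (−0.23 to 0.16), Hspa8 (−0.18 to 0.18), Hspa9 (−0.19 to 0.020), Pdia4 (−0.36 to 0.0096), Ppib (−0.18 to 0.11), Xbp1 (−0.12 to 0.082), Hspd1/Hspe1 spot A (−0.32 to 0.032) and spot B (−0.078 to 0.21). The levels of Calr (−0.087 to 0.026) and Ddit3 (−0.056 to 0.11) turned too. The 7 and 6 mice and a median SE of 0.29 for the members limit what could be called.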
